A study of Rattus norvegicus with 18 samples.

Results

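The CpGs described here are 968 sites of the rat testis methylome at which every library read close to 0, 50 or 100% methylation. They were chosen by their measured levels among 643813 CpGs of chromosomes 1 to 20 that had at least 10 reads in all 12 libraries, after the reads of both strands had been summed. A CpG was taken when each library lay within 15 percentage points of 0, 50 or 100% and no more than 9 libraries held the same one of these levels. The 968 sites, called genotype-like CpGs below for this shape alone, made up 0.150% of the CpGs kept. Their number depends on the rule: a window of 10 points gave 242 CpGs, one of 20 points 4835, and a minimum of 20 reads 598. The levels themselves are therefore a description and not a finding.

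The DNA came from testes of male Wistar rats aged 8 weeks and was measured by RRBS (reduced representation bisulfite sequencing): it is cut with MspI, an enzyme that cuts at CCGG, size selected and treated with bisulfite. There were 6 libraries labelled chronic sleep restriction (CSR) and 6 labelled control, and the labels give no other treatment or allele. The purpose stated by the series is to relate sleep restriction to the decline of male fertility. The submitters' codes of the control methylation libraries bear the letter used for CSR in the RNA codes, so the direction of every group difference below rests on the labels. Whether every library is a separate animal is not said in the labels, and the p-values then measure only how far these samples spread, which may be technical. The tables hold no expression values, so the tissue could not be checked here against marker genes.

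Bisulfite turns unmethylated cytosine into uracil, which is sequenced as T, while methylated cytosine is still read as C. A C-to-T change in the DNA itself is read in the same way as a loss of methylation, and methylated CpGs are known to mutate to TpG often. In a diploid cell such a change can sit on neither, one or both copies of a chromosome. Genomic imprinting and other methylation of a single allele can also give levels near 50%, in cells whose alleles differ in methylation. Whether the cells of these testes carry such differences was not tested. Methylation of a single allele can itself follow the DNA sequence and so differ between animals. Wistar is an outbred stock, in which animals can carry different alleles. DNA sequence and gene context (build rn6) were not analysed here, and whether a sequence variant underlies any of these CpGs was not tested.

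Reads at CpG cytosines numbered 46257452 to 68940379 per library. At the genotype-like CpGs libraries had a median coverage of 34 to 60 reads, and at all CpGs kept of 29 to 43. The ratio of these medians was 1.08 in control library 3 and 0.971 in control library 5, and 1.28 to 1.41 in the other libraries. At the minimum of 10 reads a level of 0% allows up to 30% methylation, and at 45 reads, the median for values at 0%, up to 6.67%. Such limits cover counting error only, since the reads carry no molecular identifiers.

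CSR libraries 2 and 3 stood apart from all other pairs of libraries and are considered before the results. They held a different level at 19 of the 968 CpGs. At 0 of the 968 did one read near 0% and the other near 100%. This allows up to 0.310% if the CpGs are counted as independent. Where the levels differed, the gap was 35.8 points in the median, from 24.2 to 57.0 points. Where they were equal, the median gap was 2.70 points. Among the other 65 pairs, libraries of the same group were equal at 43.8% of the CpGs in the median (38.1 to 51.2%, 29 pairs) and libraries of different groups at 44.6% (37.3 to 50.3%, 36 pairs). Opposite levels were held by these pairs at 9.81% of the CpGs in the median, with a range of 4.75 to 13.8%. The labels do not say whether CSR libraries 2 and 3 share an animal. Some counts and shares below are given for all 12 libraries only, and others also without CSR library 3. Without it, with no more than 8 of 11 libraries at 1 level, 1053 of the same 643813 CpGs met the rule.

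Each of the 3 levels was common. Of 11616 values, 3575 (30.8%) lay near 0%, 4239 (36.5%) near 50% and 3802 (32.7%) near 100%. All 3 levels were seen at 567 CpGs, only 50 and 100% at 202, only 0 and 50% at 190, and only 0 and 100% at 9. The most frequent makeups lay at the limit of the rule: 80 CpGs had 9 libraries near 100% and 3 near 50%, and 64 had 9 near 0% and 3 near 50%. Without CSR library 3, 38.2% of values lay near 50%. The share near 50% rose with depth, from 34.8% of values in CpGs whose lowest library had 10 to 17 reads, through 36.4% at 18 to 27 reads, to 38.1% at 28 to 123 reads. The rule also took a larger part of deep CpGs: 9.60, 16.8 and 25.8 per 10000 kept in these same classes.

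**Figure D1:**
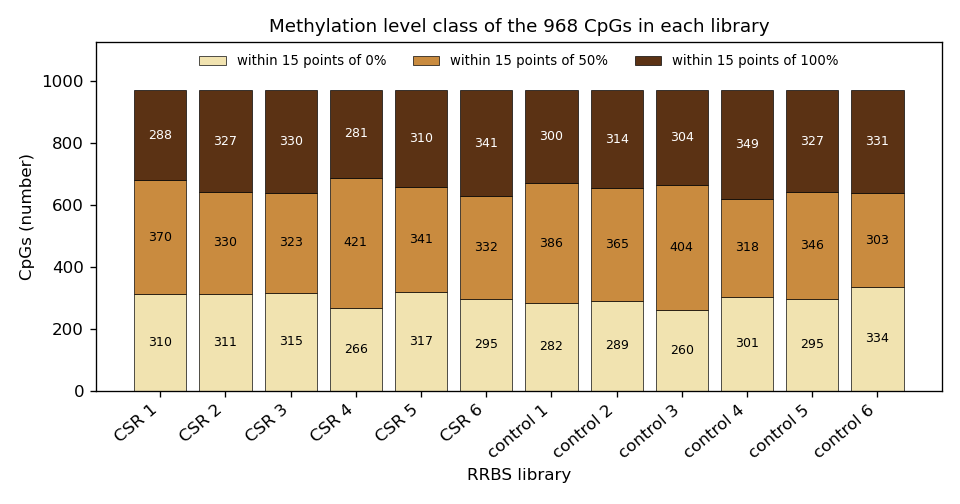
Number of the 968 CpGs within 15 points of 0, 50 or 100% methylation in each RRBS library; bars are stacked counts. The share near 50% lay between 31.3% in control library 6 and 43.5% in CSR library 4, and the groups overlapped.

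The share of CpGs near 50% differed between libraries, as the plot of level classes by library shows. It was highest in CSR library 4 (43.5%) and lowest in control library 6 (31.3%). The mean level over the 968 CpGs was 49.4 ± 1.22% in CSR libraries and 50.2 ± 0.950% in control libraries (SD, n = 6 each), a difference smaller than the spread within either group.

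Values at 0% were exact more often than those at 100%. Of values near 0%, 79.3% had no methylated read, whereas 39.6% of values near 100% had no unmethylated read, and their mean was 96.3%. Values near 50% had a mean of 49.3% and an SD of 7.94 points, beside 7.88 points computed from their read counts alone. Both the window of 15 points and the counting of reads bound that SD, so it does not show how exact the level is.

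The edge of the window did not fall in a gap of the data. The nearest CpGs inside, each with 1 library exactly 15 points off, lay on chromosome 2 at 22702905 to 22702906, chromosome 14 at 7895907 to 7895908 and chromosome 8 at 114636790 to 114636791. The nearest outside lay on chromosome 5 at 154136381 to 154136382 and chromosome 19 at 52765556 to 52765557, both 15.05 points off in CSR library 3 at 103 reads, and on chromosome 1 at 16647144 to 16647145, 15.08 points off in CSR library 1 at 63 reads. In all, 220 CpGs had their worst library 14 to 15 points off and 205 had it 15 to 16 points off. Farther in, 72 had it 10 to 11 points off. Farther out, 431 had it 16 to 17, 389 had it 17 to 18 and 2017 had it 20 to 21 points off. A further 1669 CpGs missed the rule in 1 library.

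The X chromosome, of which male cells carry a single copy, was not part of the rule and was looked at in the same way. Of 4165 CpGs kept there, 4 met the rule (9.60 per 10000, beside 15.0 per 10000 on chromosomes 1 to 20). Their 48 values held 16 near 0%, 32 near 100% and 0 near 50%, which would allow a share of up to 6.25% were the values independent. At X 11743602 to 11743603, CSR libraries 5 and 6 and control library 5 read 0%, control library 2 read 93.3% and the other 8 read 100%. At X 79298304 to 79298305, CSR library 4 and control libraries 1, 3 and 5 read 0% and the other 8 read 92.7 to 100%. The same 4 libraries were the low ones at X 79265582 to 79265583, 32.7 kb away. At X 124066291 to 124066292, 5 libraries read 0%, from both groups, and the other 7 read 87.5 to 100%. With 4 CpGs, of which a pair shares its pattern, this is a small set. The 48 values are not independent, so the limit of 6.25% is too narrow.

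On chromosomes 1 to 20 a CpG with no library near 50% was rare. The 9 such sites lay at 5 places, and 5 of them formed a single run on chromosome 2, described below. A pair on chromosome 11, at 83538217 and 83538330, read low in CSR libraries 4 and 5 and control library 3, at 0 to 3.53%, and high in the other 9 libraries, at 85.9 to 100%. On chromosome 9 at 116624681 to 116624682, CSR libraries 2 and 3 and control library 6 read 100, 92.9 and 87.9%, and the others 0 to 8%. On chromosome 3 at 125600126 to 125600127, CSR libraries 2, 3 and 5 read 100, 100 and 96.6% and the other 9 libraries 0 to 6.41%. CSR libraries 2 and 3 were on the same side at all 9 sites.

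Most genotype-like CpGs were far apart. The gap between consecutive ones had quartiles of 204, 849 and 2608 kb, beside a median of 39 bp between consecutive CpGs kept. Of 948 consecutive pairs, 50 lay within 200 bp, 52 within 1 kb, 63 within 10 kb, 168 within 100 kb and 506 within 1 Mb. Of the 52 pairs within 1 kb, all but 2 thus lay within 200 bp. The largest gap, 41.2 Mb on chromosome 1 between 211185723 and 252382683, held 10017 kept CpGs and no genotype-like one between its ends.

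Despite the wide spacing, 97 of the 968 (10.02%, 95% Wilson interval 8.28 to 12.1%) had another genotype-like CpG within 200 bp, beside 0.584% of all kept CpGs. The share was 9.93% without CSR library 3, 6.61% with a window of 10 points and 15.2% with one of 20 points. The 97 formed 45 pairs, 1 group of 3 and 1 group of 4, so they are not independent and the interval covers counting only. Of 2627 windows of 1 Mb with a kept CpG, 620 held at least 1 genotype-like CpG and 12 held 5 or more. The fullest were chromosome 7 from 137 to 138 Mb, with 6 of 655 kept CpGs in 4 patterns, and chromosome 19 from 57 to 58 Mb, with 6 of 845 in 2 patterns. By chromosome the density ran from 8.69 per 10000 kept CpGs on chromosome 16 to 22.8 on chromosome 2.

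Close CpGs held the same libraries at the same levels. A pair was called equal when all 12 libraries held the same level at both sites, and mirrored when they did so after 0 and 100% were exchanged. Of 53 pairs up to 200 bp apart, 84.9% were equal or mirrored. The share was 56.3% of 16 pairs at 201 bp to 10 kb, 52.3% of 132 pairs at 10 to 100 kb and 22.6% of 718 pairs at 100 kb to 1 Mb. It fell to 2.01% of 2135 pairs at 1 to 5 Mb. On different chromosomes it was 0.038% of 440562 pairs. The squared correlation over the 12 libraries was taken between the levels they held, not between the measured percents. An equal or mirrored pair therefore has a value of 1 by construction. The median of 1 in each class up to 100 kb follows from the shares of such pairs and adds nothing to them. At 100 kb to 1 Mb the median was 0.510, at 1 to 5 Mb 0.150 and between chromosomes 0.058. Without CSR library 3 the share of pairs with a squared correlation of at least 0.8 was the same in the first 3 classes, at 86.8, 75 and 60.6%. Pairs share CpGs and libraries, so these shares carry no test.

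**Figure D2:**
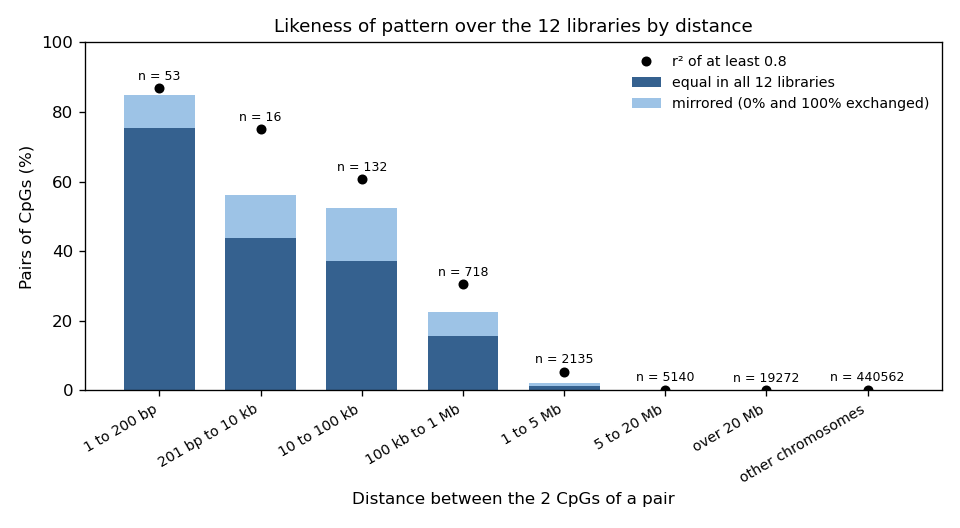
Percent of pairs of genotype-like CpGs with an equal or mirrored pattern over the 12 libraries (stacked bars), by distance. Points give the percent with a squared correlation of at least 0.8 between the levels held. Every equal or mirrored pair counts in the points by construction. The number of pairs is n. The bars drop from 84.9% within 200 bp to 22.6% at 100 kb to 1 Mb and to 0.038% between chromosomes.

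Counting an equal and a mirrored pattern as 1, the 968 CpGs held 671 patterns, of which 486 were seen at a single CpG. There were 150 runs of 2 or more consecutive CpGs with 1 pattern and gaps of up to 1 Mb. These runs took in 351 of the 968 CpGs (36.3%). Of the runs, 113 held 2 CpGs, 26 held 3, 8 held 4 and 3 held 5. Their median span was 118 kb and the longest was 1188 kb, and 43 of the 150 held a mirrored CpG. With CSR library 3 left out of the patterns, the 968 CpGs held 669 patterns and again 150 runs with 351 CpGs. Of 52 consecutive pairs up to 1 kb apart, 43 (82.7%, 95% Wilson interval 70.3 to 90.6%) were equal or mirrored. Without CSR library 3 the share was 84.5%, but with a window of 20 points it was 52.8%. Consecutive pairs can share a CpG and all share the libraries, so the interval covers counting only.

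The run on chromosome 19 from 57089058 to 57564206 held 5 CpGs, of which 3 mirrored the first. At 57089058 the CSR libraries 1 to 6 read 3.85, 54.8, 42.9, 57.1, 0 and 0%, and the control libraries 54.2, 0, 43.4, 44.2, 40.2 and 0%. At 57138339, 49.3 kb on, the CSR libraries read 100, 47.2, 58.8, 60, 94.6 and 98.4% and the control libraries 53.1, 97.4, 55.3, 55.8, 55.6 and 93.5%. As a mirrored pattern requires, the 5 libraries near 0% at the first site were those near 100% at the second, and the 7 near 50% were the same. The last site, 475 kb from the first, had returned to the first pattern, with 0% in CSR libraries 1, 5 and 6 and control library 2 and 7.5% in control library 6.

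On chromosome 8 from 118903082 to 119536240, 4 CpGs were equal and the last was mirrored. At the first site CSR libraries 1 to 5 and control library 3 read 0%, CSR library 6 and control library 6 read 100%, and control libraries 1, 2, 4 and 5 read 52.5, 55.6, 51.9 and 37.8%. At the last site, 633 kb away, the libraries that had read 0% read 87.5 to 100%, and those that had read 100% read 0 and 2.82%. Of the 4 libraries near 50%, all were control libraries.

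The run on chromosome 2 from 23432948 to 23620019 held only 0 and 100%. Its first 4 CpGs lay within 45 bp and the fifth 187 kb away. At each of the 5, CSR libraries 1 and 4 and control libraries 3 and 6 read 0%, and the other 8 libraries read between 85 and 100%. On chromosome 5 from 161102835 to 161300018, CSR library 4 and control libraries 3 and 4 stayed near 50% at all 4 CpGs. The other 9 libraries read 88.6 to 100% at the first site and 0 to 7.25% at the other 3. On chromosome 14 from 9913684 to 11101408, the longest run in span, CSR libraries 4 and 5 and control libraries 3 and 6 read 37.8 to 64.4% at all 4 CpGs. The other 8 libraries read 0 to 8.33% at the first 3 and 97.2 to 100% at the last.

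**Figure D3:**
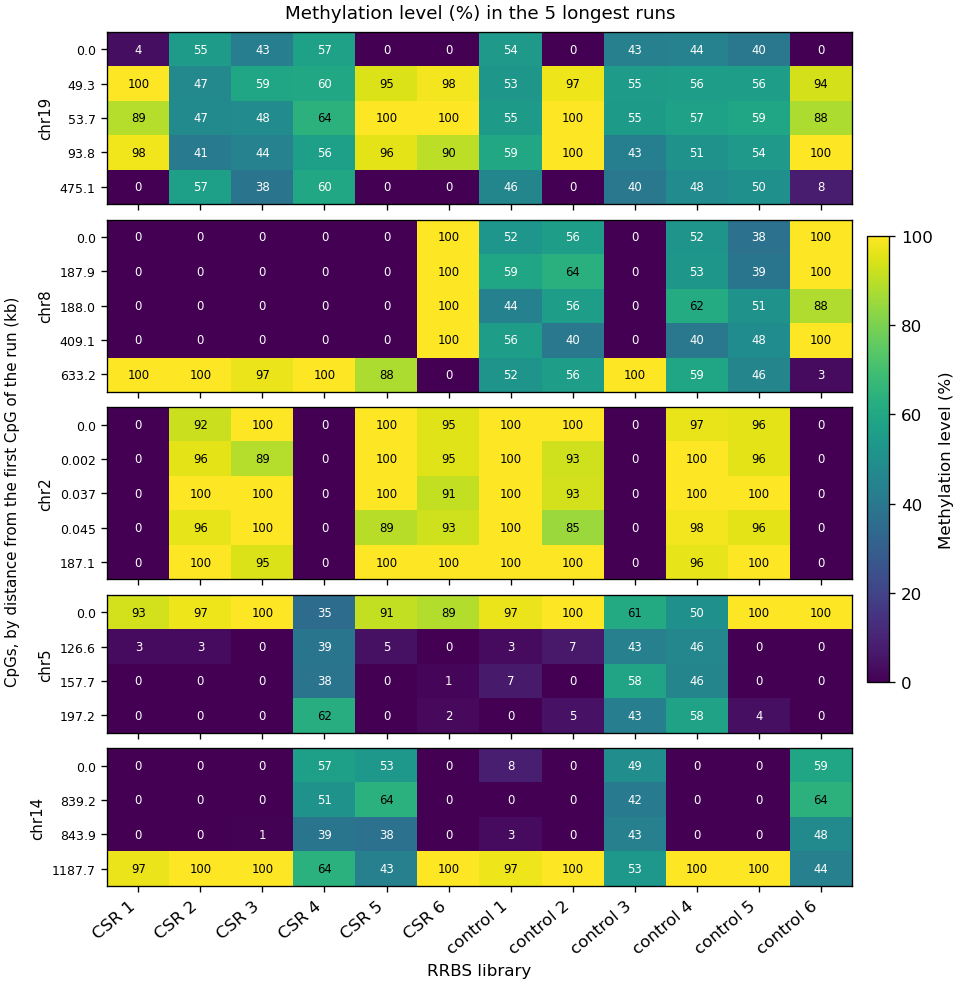
Methylation level (%) of each genotype-like CpG (rows, by distance in kb from the first of its run) in each RRBS library (columns) for the 5 runs with the most CpGs. By the definition of a run the libraries keep their level or exchange 0 and 100% together, as at 633.2 kb on chromosome 8.

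The CpGs around the genotype-like ones were mostly methylated and varied little. Within 200 bp, 911 of the 968 had at least 1 other kept CpG that did not meet the rule. These 3664 neighbours had a median level of 95.5%, and 90.7% of them had a mean of at least 85%, compared with 57.1% of all kept CpGs. Only 0.901% had a mean under 15%, compared with 21.4% of all kept. Their SD over the 12 libraries was 4.53 points in the median, beside 30.6 points at the genotype-like CpGs and 5.60 points at all kept CpGs. The number of neighbours was not unusual, with a median of 4 both here and for all kept CpGs.

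Under the rule as stated, few neighbours followed the genotype-like CpG. A correlation of at least 0.7 in size over the 12 libraries was found for 169 of 3892 pairs (4.34%, 95% Wilson interval 3.75 to 5.03%), 134 of them positive and 35 negative. Among all pairs of kept CpGs within 200 bp it was found for 335214 of 1519320 (22.1%). These sets of pairs were not matched for methylation level or range over the libraries. Pairs share CpGs and libraries, so the interval covers counting only. A mean of at least 85% was held by 90.7% of the neighbours and 57.1% of all kept CpGs. In libraries where the genotype-like CpG stood near 100%, its neighbours were 0.147 points higher in the median than in libraries where it stood near 0% (quartiles -2.5 and 3.31 points, 2329 pairs), and 86 pairs (3.69%) changed by 20 points or more. The share of followers was 6.52% at 1 to 10 bp, 5.13% at 11 to 50 bp, 3.66% at 51 to 100 bp and 3.65% at 101 to 200 bp. Over all distances it was 5.74% without CSR library 3. It moved further with the rule, to 9.21% at a minimum of 5 reads, 7.99% with up to 10 libraries at 1 level and 24.6% with a window of 20 points, which is above the 22.1% of all kept pairs. With a correlation of at least 0.5 it was 13.03%. With a window of 10 points the share was 4.67%, and with a minimum of 20 reads 3.05%. The low share therefore holds for the windows of 10 and 15 points and not for that of 20. A neighbour that follows closely may itself meet the rule and is then not counted here, so the share applies only to neighbours outside the rule.

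The CpG with the most neighbours lay on chromosome 16 at 7687605 to 7687606. It read 89.2, 63.0, 60.3, 51.4, 95 and 94.3% in CSR libraries 1 to 6 and 100, 48.8, 100, 55.8, 50 and 85.9% in control libraries 1 to 6, with 3 libraries of each group near 50%. Its 31 neighbours had mean levels of 80.0 to 98.96% with a median of 96.7%, and their range over the libraries was 8.96 points in the median and 23.5 points at most. None of the 31 followed it, which allows a share of up to 9.68% if they are counted as independent. Of the other 4 CpGs with the most neighbours, that on chromosome 16 at 7687704 had 22 and that on chromosome 2 at 237597611 had 21, with no follower. The pair on chromosome 4 at 173216783 and 173216797 had 19 neighbours each, of which 1 followed.

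**Figure D4:**
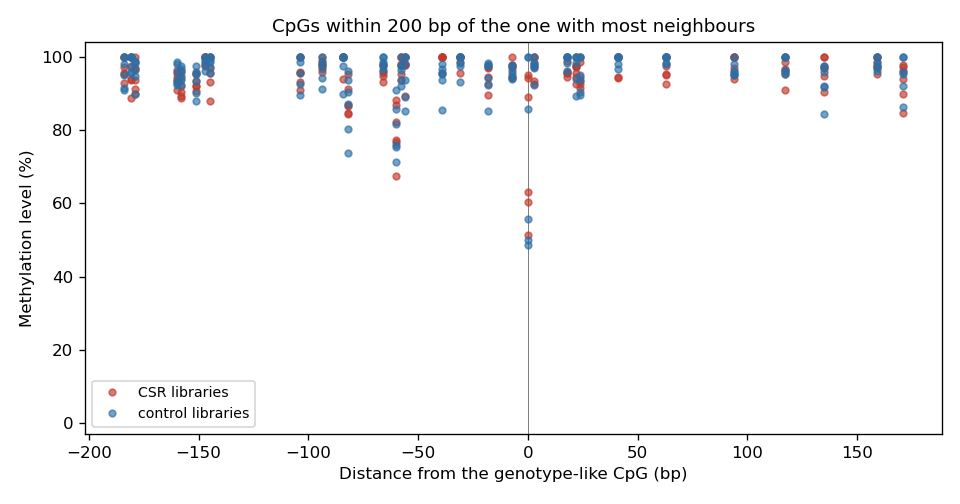
Methylation level (%) in each of the 12 libraries at the genotype-like CpG with the most neighbours (distance 0, on chromosome 16) and at its 31 neighbours within 200 bp; each point is 1 library. At distance 0, 6 libraries lie between 48.8 and 63.0%, while the means of the neighbours lie between 80.0 and 98.96%.

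The neighbours that did follow were often close to the rule themselves. They were 155 distinct CpGs with a median range of 53.5 points, and 84 of them lay outside the 15 points in 1 or 2 libraries. The 5 with the largest range, on chromosome 6 at 136339812 and 2182020, chromosome 3 at 46162676, chromosome 17 at 75243391 and chromosome 9 at 114890157, each missed the rule in 1 library. On chromosome 3, 3 bp from the genotype-like CpG at 46162679, the neighbour read 40% in CSR library 4, 100% in CSR library 5, 68.4 and 53.9% in control libraries 1 and 2, and 0 to 5.19% in the others. The genotype-like CpG itself read 39.2, 100, 60.5 and 48.9% in those 4 libraries and 0 to 4% in the others. The correlation over the 12 libraries was 0.996, and the neighbour lay outside the window in control library 1 alone.

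Not every close pair of genotype-like CpGs was alike. Of the 53 pairs within 200 bp, 40 were equal, 5 were mirrored and 8 were neither. On chromosome 17 the sites 80546932 and 80546949, 17 bp apart, shared their level in 1 of 12 libraries. The correlation between the levels held, not the measured percents, was -0.663. On chromosome 16 the sites 7687605 and 7687704, 99 bp apart, shared it in 9 of 12. The 3 libraries near 50% at the second site, CSR library 4 and control libraries 4 and 5, were also near 50% at the first, where CSR libraries 2 and 3 and control library 2 joined them. These examples were chosen after their values were seen.

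The strands of a genotype-like CpG could differ freely only where their sum lay near 50%, since a sum near 0 or 100% leaves little room. A CpG that has become TpG has lost its CpG on both strands, which is background and not a test of these sites. Of 11616 values, 9979 (85.9%) had at least 5 reads on each strand. Both strands lay within 25 points of the same level in 74.96% of such values near 50%, and in 99.3% near 0% and 96.3% near 100%, where the rule nearly fixes it. Near 50% the strands differed by 21.7 points in the mean and 17.3 points in the median, beside a mean of 13.1 points computed from the read counts alone. The strands thus differed at 50% by more than counting error.

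Strand differences that kept the same direction across libraries were large at a minority of the sites. For each of 862 CpGs with at least 2 such values near 50%, forward minus reverse was averaged with its sign. Differences in opposite directions cancel in this mean, so a small mean does not show that the strands agreed in each library. The mean was under 20 points in size at 704 CpGs (81.7%) and at least 40 points at 36 (4.18%). The forward strand was higher at 22 of these 36 and the reverse at 14. On chromosome 16 at 1421293 to 1421294, the 3 libraries near 50% were CSR library 5 and control libraries 5 and 6. Their forward strands read 100, 72.7 and 85%, and their reverse strands 0% each, at 9, 7 and 9 reads. In 8 of the other 9 libraries the reverse strand was not covered by 5 reads, and the forward strand read 89.7 to 100%. At this site, chosen after its values were seen, the level of 50% is a sum of unlike strands. Coverage did not separate the levels: at the 567 CpGs with all 3 levels, libraries near 0% had 0.988 times and those near 50% had 1.03 times the coverage of those near 100%, in the median.

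The comparison of CSR with control asks whether these CpGs differed between the groups of the study. The rule used the levels of all libraries but not their groups. Of the 968 CpGs, 1 (0.103%) was called by the quasi-binomial model with moderated dispersion, for which both 10 points of difference and an adjusted p under 0.05 were required, beside 0.00032% of 625151 CpGs tested, that is 2 in all. With limma on log ratios 0 of the 968 and 0% of all were called. An unadjusted p under 0.05 was found for 146 (15.1%), beside 7.34% of all tested. Of these 69 were higher in CSR (7.13%, beside 4.09%) and 77 lower (7.95%, beside 3.25%). The 146 CpGs held 106 patterns, so they are not 146 independent sites. The count also depended on the model: it was 61 of the 968 without moderation of the dispersion and 128 with limma on log ratios. With a replicate block it was 195 by the quasi-binomial model and 205 by limma. The shares over all CpGs tested in these fits are not given here, so no excess can be read from them. Without CSR library 3, 142 of the 1078 CpGs that then met the rule had such a p. These 1078 came from 666914 CpGs with at least 10 reads in the other 11 libraries, unlike the 1053 above. The share over all 644752 CpGs tested in that fit is not given here, so the 142 cannot be set against it. The groups did not overlap at 3 CpGs (0.31%, beside 0.163%).

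Differences between group means were wide at these CpGs, whose levels jump by about 50 points. The difference was 11.8 points in size in the median (11.2 without CSR library 3), beside 2.24 points over all CpGs tested. It was 10 points or more at 542 of the 968 (56.0%, beside 5.07%). At 162 (16.7%) it was 25 points or more, for which the share over all CpGs tested is not given here. Of the 968, 455 were higher in CSR and 513 lower. The rule itself asks for at least 3 libraries off the commonest level, so wide differences can arise with any grouping of the libraries. The values beside all CpGs tested describe the choice of sites and are no result about the groups.

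The called CpG lay on chromosome 1 at 35466322 to 35466323. The CSR libraries 1 to 6 read 57.5, 53.4, 51.3, 90.5, 49.6 and 46.8%, and the control libraries 94.6, 95.5, 94.1, 94.8, 95.4 and 97.2%, at 68 to 352 reads. CSR library 4 alone of its group was near the controls, and the groups did not overlap. The means were 58.2 ± 16.2% and 95.3 ± 1.05% (SD, n = 6 each), a difference of -37.1 points with an adjusted p of 0.0438 by the quasi-binomial model moderated with limma. Without CSR library 3 the CSR mean at this CpG was 59.6% and the difference -35.7 points. Its 3 neighbours within 200 bp had a median level of 97.9% and differed by at most 0.266 points between the groups. The call held in 5 of the 21 alternatives that refit the model, and in 5 others that leave its fit as it is, with adjusted p-values from 2.45e-09 without CSR library 4 to 0.880 in the limma fit with a replicate block. It was lost when CSR library 1, 2, 3, 5 or 6 was left out (adjusted p = 0.0520, 0.165, 0.181, 0.109 and 0.0666 by the same model) and when control library 1, 4, 5 or 6 was left out (adjusted p = 0.0840, 0.0735, 0.106 and 0.345). With CSR libraries 2 and 3 summed the adjusted p was 0.118. This CpG was named after its values were seen.

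The other 2 CpGs without overlap did not pass. On chromosome 12 at 42490061 to 42490062, the CSR libraries read 0 to 8.33% and the control libraries 38.7, 40, 8.70, 54.5, 15 and 10%, at 10 to 31 reads (adjusted p = 0.661 by the quasi-binomial model with limma moderation). Its 3 neighbours had a median level of 32.8%, far below most neighbours, and a median difference of -18.4 points, in the same direction. That on chromosome 20 at 20753798 is given next.

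On chromosome 20 from 20753798 to 21409583, 3 genotype-like CpGs shared a pattern in which all 6 CSR libraries stood near 100%. At 20753798 the CSR libraries read 97.3 to 100% and the control libraries 51.3, 96.5, 36.4, 0, 58.5 and 37.5%. At 21286929 the CSR libraries read 91.4 to 97.8% and the control libraries 47.2, 97.99, 46.6, 0, 39.5 and 49.2%. At 21409582 the CSR libraries read 94.2 to 100% and the control libraries 49.8, 98.3, 55.6, 0, 47.4 and 51.1%. In each, control library 2 lay with the CSR libraries and control library 4 at 0%. The differences were 52.9, 48.5 and 47.7 points, with adjusted p-values of 0.207, 0.337 and 0.375 by the quasi-binomial model moderated with limma. Without control library 2 all 3 passed (adjusted p = 0.00323, 0.000722 and 0.000722 by this model). The 4 neighbours of each had median group differences of 1.74, -0.602 and -1.69 points. These 3 sites share their libraries' pattern over 656 kb and are not 3 separate observations of a group difference.

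**Figure D5:**
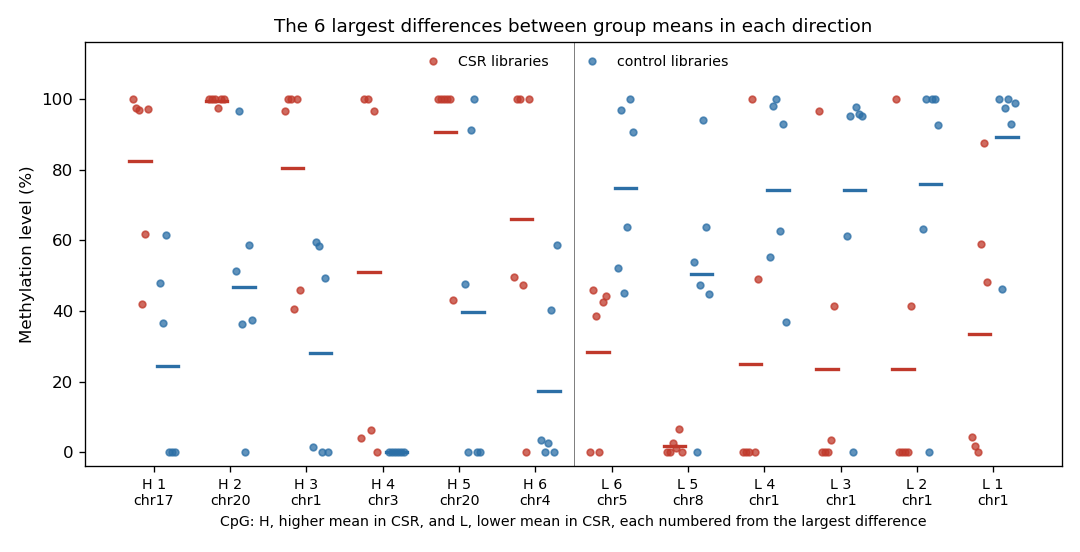
Methylation level (%) of the 6 CSR and 6 control libraries (points) and group means (lines) at the 6 genotype-like CpGs with the largest difference in each direction, numbered from the largest. The libraries sit in steps near 0, 50 and 100%, and none of the 12 CpGs passed the threshold in the model without a block.

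The largest differences in mean were fixed by how many libraries of each group held each level, and none of the 12 passed in the model without a block. Highest in CSR was chromosome 17 at 60865349 to 60865350, where the CSR libraries read 100, 97.4, 96.8, 42.1, 61.8 and 97.1% and the control libraries 47.8, 36.5, 61.4, 0, 0 and 0%. The difference was 58.2 points (55.4 without CSR library 3), with 9 neighbours that differed by 0.220 points in the median. On chromosome 1 at 161676010 to 161676011 the CSR libraries read 96.7, 100, 100, 40.6, 100 and 46.0% and the control libraries 1.41, 59.5, 58.3, 0, 49.2 and 0%, a difference of 52.5 points (48.6 without CSR library 3). With the replicate number as a block this CpG was called (adjusted p = 0.0258 by the quasi-binomial model and 0.0330 by limma), though the numbers were not found to pair the libraries. On chromosome 3 at 125600126 the difference of 51.2 points came from CSR libraries 2, 3 and 5, since all control libraries read 0%, and it was 41.4 points without CSR library 3. The CpG on chromosome 4 at 31828191 differed by 48.7 points, or 41.9 without CSR library 3, and that on chromosome 20 at 51944852 by 50.7 points, or 48.8 without it.

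Lowest in CSR was chromosome 1 at 161384098 to 161384099, where CSR libraries 1 to 6 read 4.44, 1.89, 0, 58.9, 87.5 and 48.1% and control libraries 1 to 6 read 100, 46.2, 97.6, 100, 92.9 and 98.7%, a difference of -55.7 points (-49.0 without CSR library 3). It lies 292 kb from the site on chromosome 1 that was among the highest. A pair 5 bp apart on chromosome 1, 270238390 and 270238395, had the same pattern and differed by -50.6 and -52.4 points, or -45.8 and -47.7 without CSR library 3. The site on chromosome 1 at 92178554 differed by -49.4 points (-44.4 without it) and that on chromosome 5 at 136968854 by -46.3 points (-48.2 without it). On chromosome 8 at 110080527 to 110080528 all CSR libraries read 0 to 6.67% and the control libraries 53.8, 0, 47.3, 94.0, 63.6 and 44.8%, a difference of -48.8 points (adjusted p = 0.234 by the quasi-binomial model moderated with limma). There control library 2 again lay with the CSR libraries, and without it the adjusted p was 0.00247. Apart from the chromosome 20 site at 51944852, where the 4 neighbours differed by 7.62 points in the median and 1 of them by 49.7, no neighbour of the 12 differed between the groups by more than 6.39 points.

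In the window of chromosome 6 from 2 to 4 Mb, 3 of 588 kept CpGs were genotype-like. At 2181924 CSR libraries 1 to 6 read 56.5, 100, 100, 86.2, 35.7 and 100% and control libraries 1 to 6 read 38.3, 44.2, 94.9, 0, 0 and 64.3%, a difference of 39.5 points that did not pass. Its 2 neighbours differed by 19.6 points in the median and 1 of them by 40.5. The other CpGs, at 3478854 and 3691014, had differences of -31.5 and -13.9 points, lower in CSR, that did not pass, and their neighbours differed by at most 2.42 and 3.81 points. The chromosome 20 segment up to 5.5 Mb also held 3, of 2674 kept CpGs.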

How the data were processed

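Reads at CpG cytosines of 12 RRBS libraries from rat testis were analysed. RNA values were not used here. The deposited tables give, per the file headers, a read count (coverage) for each cytosine and, in percent, how much of it was read as C and as T, per strand. The lowest deposited coverage count was 5 reads. Trim Galore, Bismark, SAMtools and rn6 are named in the submitters' processing notes. Versions and settings, not given in the sources used here, could not be stated.

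Methylated reads were taken as coverage times percent and strands were summed. The 968 CpGs and all lists were chosen with earlier results of these data known. The groups were compared per CpG over 625151 CpGs that varied, with a quasi-binomial model of methylated and unmethylated reads, two-sided, the dispersion moderated by limma 3.58.1 in R 4.3.3, and Benjamini-Hochberg adjustment over all. The model was tested on simulated data. Everything else used Python 3.11.15, numpy 2.4.6 and scipy 1.17.1. Figures used matplotlib 3.10.9.

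Named CpGs are the 6 with the largest group difference in each direction, the 5 longest runs (ties by total coverage), the 5 with most neighbours, the 5 following neighbours with the largest range and the 3 nearest on each side of the window. Other named CpGs fall outside these lists, among them chromosome 20 at 21286929 and 21409582 and the chromosome 6 sites from 2 to 4 Mb. Only some of these others are marked in the text as chosen after their values were seen. Libraries with the same number did not deviate together: over 6 pairs the correlation of their deviations from the group means was -0.00740 to 0.0117. Numbers were therefore not taken to pair the libraries. Alternatives were other windows, coverage limits and models, and leaving out each library.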

Additional observations from a re-analysis of the deposited data

Results flagged for a closer look

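In groups of 6 libraries, a library far from the others was seen in 5 of 24 groups of named CpGs and in 0 of 14 groups of library summaries. Chance marks about 1 in 20 groups, but this does not apply to the named CpGs, which were chosen for levels in steps of about 50 points and for their group difference. At chromosome 20, 51944852, CSR library 6 read 43.2% and the other CSR libraries 100%. At chromosome 1, 161384098, control library 2 read 46.2% and the other controls 92.9 to 100%. At chromosome 1, 270238395, control library 3 read 0% and the others 63.3 to 100%, and at 270238390 it read 0% and the others 61.3 to 97.8%; these 2 sites are 5 bp apart. At chromosome 20, 20753798, CSR library 4 read 97.3% and the others 100%, all near the same level.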

How the results depend on the processing

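The number of CpGs that met the rule was 242 with a window of 10 points, 4835 with 20 points and 598 with at least 20 reads, against 968. Leaving out 1 library gave 1009 to 1105. The share with another such CpG within 200 bp, 10.02%, was 6.61% with a window of 10 points, 15.2% with 20 points and 7.44% within 100 bp, and 9.09 to 10.3% with 1 library left out. The share of close consecutive pairs with 1 pattern, 82.7%, was 52.8% with 20 points and 78.6 to 89.7% with 1 library left out. The share of following neighbours, 4.34%, was 4.67% with a window of 10 points and 24.6% with 20 points. It was 9.21% with at least 5 reads and 3.05% with at least 20. It was 7.99% with up to 10 libraries at 1 level, 5.30% with CSR libraries 2 and 3 summed and 13.03% at a correlation of at least 0.5. With 1 library left out it was 4.89 to 6.03%. The cause of each move was not tested.

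The count of CpGs called between the groups, 1, was 0 with CSR libraries 2 and 3 summed, with at least 5 reads, without moderation of the dispersion and with limma on log ratios, and 0 to 5 with 1 library left out, with 5 without control library 2 (18 of 640112 CpGs tested) and 2 without control library 1 (7 of 628719). Leaving out control libraries 3 and 5 together, chosen after seeing the data, gave 3 calls (8 of 675825 tested), of which 1, on chromosome 15 at 106634729, is among the 968 (adjusted p = 0.0253) and 2, on chromosome 6, are not. With a replicate block 1 CpG was called, but another one, on chromosome 1 at 161676010 (adjusted p = 0.0258 by the blocked model and 0.0330 by limma, also chosen after seeing the data); 0.5 reads were added on each side in these fits. Depth limits the set: it excludes CpGs with under 10 reads in any library, and a level near 50% needs reads to be told from its neighbours.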
